A study of Mus musculus with 27 samples.

Results

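C57BL/6J is the inbred laboratory strain from which the mouse reference genome was built. DNA methylation in hepatocytes, the main metabolic cell type of the liver, was compared between the 3 C57BL/6J samples and the 24 samples of 8 other inbred strains. The C57BL/6J samples were chosen by the strain in their labels, and they make up 3 of the 27 samples of the series. All 27 samples came from female mice aged 12 weeks, with 3 biological replicates of each strain. The other strains were 129S1/SvImJ, A/J, DBA/2J, NOD/ShiLtJ and NZO/HlLtJ, which are laboratory strains, and CAST/EiJ, PWK/PhJ and WSB/EiJ, which descend from wild mice. No mouse was labelled with a treatment or an introduced allele, and no strain served as a control. The C57BL/6J replicates are numbered 1, 2 and 4, and their values are given in that order throughout. The labels name no batch, cage or date, so p-values measure the spread between these mice and cannot separate strain from anything shared by the mice of a strain.

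DNA methylation in mammals is the addition of a methyl group to cytosine, mostly at CpG dinucleotides, where the cytosines of both strands are usually methylated together. CpG-rich gene starts are mostly unmethylated, gene bodies and the DNA between genes are mostly methylated, and regulatory elements away from starts often lie in between. Reduced representation bisulfite sequencing reads the CpG-rich part of the genome: DNA is cut with MspI at CCGG, and bisulfite turns unmethylated cytosine into uracil while methylated cytosine is kept. Each value is the percent of reads that kept the cytosine at 1 position on 1 strand.

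The deposited lists held 2916034, 3072877 and 3029124 positions for the C57BL/6J samples, and 2904787 to 3156965 over all samples. All 27 samples listed 1692477 positions. These lists give no read counts, so the depth is unknown, and no counting interval can be given. The mitochondrial chromosome is named M in the C57BL/6J lists and MT in the others; any difference in processing behind this cannot be told apart from strain. Within reference promoter windows, 99.7% of positions fell on a CpG of GRCm38, against 56.2% after a shift of 1 base, and coordinates below are GRCm38. Methylation near marker starts was the only measure of cell type at hand. It could not establish hepatocyte identity, since the stellate genes given below were less methylated in C57BL/6J than the hepatocyte genes. The 5 of 16 hepatocyte markers that were read had a mean of 4.88% to 7.84% in the C57BL/6J samples and 3.68% to 13.5% in the others. Albumin was not among the 5. Of the markers of other liver cells, 1 of 11 immune genes (7.66% to 11.8% against 9.03% to 15.0%), 4 of 9 endothelial (47.2% to 50.9% against 42.4% to 53.6%), 4 of 7 stellate (3.31% to 3.96% against 3.21% to 5.21%) and 4 of 6 cholangiocyte genes (10.9% to 14.6% against 11.6% to 32.3%) were read. The endothelial mean in C57BL/6J joined low levels at Kdr (2.75%) and Egfl7 (10.2%) with Tek (92.1%, 3 positions) and Tie1 (92.0%, 6 positions). Among the cholangiocyte genes, the 2 positions read near Spp1 had 8.71% to 19.6% in C57BL/6J against a median of 50.9% in the others (9.38% to 88.5%), and those near Krt7 averaged 18.3% against 25%. The 19 positions near Epcam averaged 17.8% against 16.9%, and the 8 near Cftr 0.397% against 0.765%. The C57BL/6J range overlapped that of the other samples for every list, and the part of other cell types in the results below was not tested.

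Positions were averaged over tiles of 1 kb that held at least 5 positions listed in all samples. A tile was called different at a Benjamini-Hochberg adjusted p under 0.05 in limma, with a difference of at least 25 percentage points between the C57BL/6J mean and the mean of the 8 other strain means. A called tile was set apart when all 3 C57BL/6J samples lay above, or all below, the other 24. Changes given as log2 are on the scale log2((percent + 5)/(100 - percent + 5)), with a standard error (SE); all other differences are in percentage points.

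Of the promoter windows that held differing positions, 4 are printed first, from RefSeq on GRCm38.p6. Each window runs from 250 bases before a start to 50 bases after it, 5′ to 3′ on the gene's strand. Capitals mark the CpGs at which C57BL/6J differed by 25 points or more from the mean of the other strains on at least 1 strand. A CpG in lower case differed by less or had no position listed in all 27 samples. B3galt4 and Gm42365 had the most such positions, Klhl33 lies in a tile set apart upward, and Vmn2r29 lies in a tile set apart downward whose window held a single such CpG.
B3galt4, chr17:33951439-33951738, minus strand: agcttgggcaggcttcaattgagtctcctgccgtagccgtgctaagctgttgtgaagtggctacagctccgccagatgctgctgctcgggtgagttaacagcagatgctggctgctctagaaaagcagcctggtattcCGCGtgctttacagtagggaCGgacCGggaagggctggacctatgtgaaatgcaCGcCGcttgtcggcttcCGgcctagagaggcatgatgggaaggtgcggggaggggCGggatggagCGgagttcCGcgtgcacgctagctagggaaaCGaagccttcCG
Gm42365, chr4:155962494-155962793, plus strand: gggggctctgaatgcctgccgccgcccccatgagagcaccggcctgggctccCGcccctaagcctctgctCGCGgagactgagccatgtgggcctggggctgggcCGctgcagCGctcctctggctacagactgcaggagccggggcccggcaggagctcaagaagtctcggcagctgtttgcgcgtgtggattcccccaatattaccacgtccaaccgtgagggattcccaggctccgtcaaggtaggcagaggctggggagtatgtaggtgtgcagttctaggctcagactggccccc
Klhl33, chr14:50897434-50897733, minus strand: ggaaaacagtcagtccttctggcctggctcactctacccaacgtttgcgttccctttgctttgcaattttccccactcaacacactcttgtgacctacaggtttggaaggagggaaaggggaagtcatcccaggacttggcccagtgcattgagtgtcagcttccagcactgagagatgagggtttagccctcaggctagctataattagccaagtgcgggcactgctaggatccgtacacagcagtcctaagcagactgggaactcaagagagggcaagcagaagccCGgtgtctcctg
Vmn2r29, chr7:7278240-7278539, minus strand: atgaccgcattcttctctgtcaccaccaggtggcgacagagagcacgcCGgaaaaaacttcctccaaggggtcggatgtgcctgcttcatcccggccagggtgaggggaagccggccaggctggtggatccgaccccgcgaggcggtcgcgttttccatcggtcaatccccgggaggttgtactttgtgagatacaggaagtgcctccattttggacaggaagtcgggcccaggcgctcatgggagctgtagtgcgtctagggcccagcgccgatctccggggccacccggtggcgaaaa

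The B3galt4 window was more methylated in C57BL/6J than in any other sample, but its tile as a whole was nearly as high in A/J. B3galt4 encodes a galactosyltransferase that builds gangliosides. Over the 24 positions measured in the window, the C57BL/6J samples had 56.3%, 60.2% and 62.2%, and the mean of the other strains was 15.8% (lowest sample 1.04%, median 5.41%, highest 54.0%). All 3 C57BL/6J samples lay above every other sample there. Of the 24 positions, 20 were at least 25 points higher in C57BL/6J, and they fell on 12 of the 20 CpGs of the window. The measured positions ended at chr17:33951600, so the CpGs of the window beyond that base were not compared. A window with 20 or more CpGs is not rare: 26.5% of the 32851 promoter windows hold as many. In the Gm42365 window, the start of a long noncoding RNA inside the gene of the secreted protein C1qtnf12, the C57BL/6J samples had 26.0%, 28.9% and 22.9% against a mean of 55%. The other samples there ran from 2.22% to 79.8%, with CAST/EiJ and WSB/EiJ below C57BL/6J. In all, 11 windows of 9 genes held a measured position inside a called tile. A start lay within 1 kb of 15.0% of called tiles, against 15.4% of all tested tiles.

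Of the 63598 tiles with 5 or more positions, 45604 had a mean at least 2.5 points away from both 0 and 100% and were tested. C57BL/6J differed in 173 of them, 0.379% of those tested. It was higher in 53 (0.116%) and lower in 120 (0.263%). The 44 tiles set apart were 0.0965% of those tested, 13 of them higher and 31 lower. The median size of a called difference was 30.8 points, and 14 called tiles differed by 50 points or more, 7 in each direction. Over all tested tiles the median difference was -0.57 points (-0.07 on the log2 scale). After the median of each sample was subtracted, 53 tiles were higher and 118 lower. Only the p-values were adjusted in this way, and direction and the minimum difference still came from unadjusted percent. These counts therefore cannot show whether the excess of lower tiles depends on a shift shared by all tiles. At an adjusted p under 0.05 with no minimum difference there were 2784 tiles. The same contrast centred on each of the other strains called 0.274% of tiles for 129S1/SvImJ, 0.305% for NZO/HlLtJ, 0.318% for NOD/ShiLtJ, 0.322% for DBA/2J, 0.423% for A/J, 0.548% for WSB/EiJ, 1.55% for CAST/EiJ and 1.57% for PWK/PhJ. These contrasts share all samples, and C57BL/6J was neither the lowest nor the highest of the 9. Lower tiles also outnumbered higher ones for DBA/2J (109 and 38), WSB/EiJ (167 and 83), NZO/HlLtJ (86 and 53) and 129S1/SvImJ (80 and 45). Higher tiles were in excess for A/J (162 and 31), NOD/ShiLtJ (77 and 68), CAST/EiJ (427 and 278) and PWK/PhJ (486 and 232). Tiles set apart were 0.0592% to 0.151% of those tested for the other laboratory strains, and 0.254% to 0.943% for the wild-derived strains. Without C57BL/6J replicate 1, 2 or 4 the tiles set apart numbered 67, 93 and 67, in place of 44. These counts take single mice as the units of error. With the 9 strain means as units instead, 2 tiles were called, and with the 24 other samples pooled as 1 group, 56. Of the 46 called tiles that the naming rule chose, 44 lost their call with strain means as units (adjusted p from 0.0738 to 0.939) and 16 with the pooled group.

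**Figure D1:**
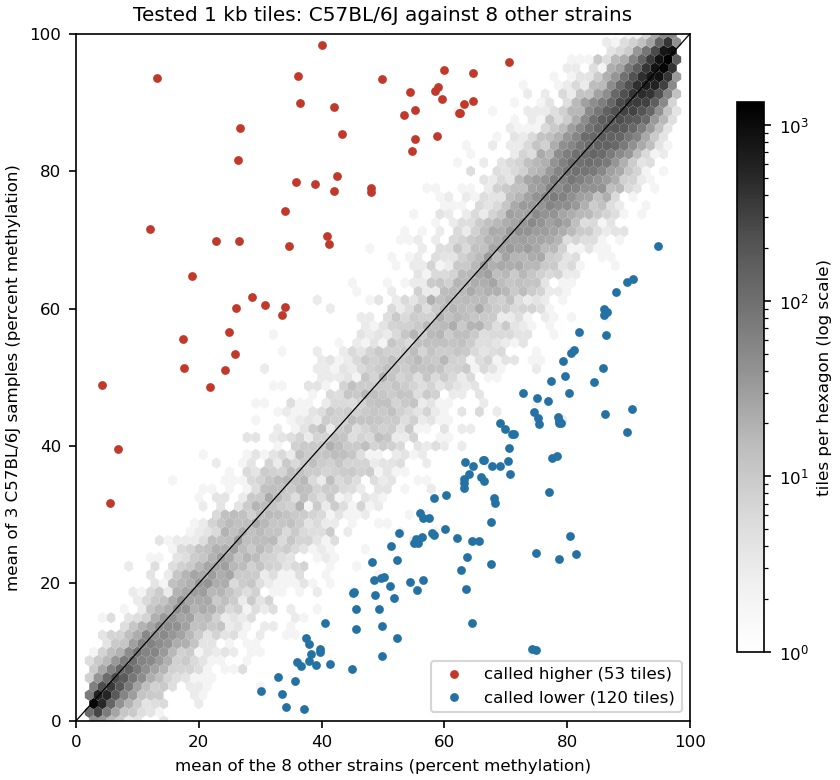
The plot of all tested tiles sets the mean of the 3 C57BL/6J samples (vertical axis, percent methylation) against the mean of the 8 other strain means (horizontal axis, percent methylation). Grey hexagons count the 45604 tested tiles on a log scale, and coloured points are the 53 called higher and the 120 called lower. The tiles called lower outnumber those called higher, most of all where the other strains were above 50%.

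The direction followed the level in the other strains. Where the others averaged under 25%, 12 of 9615 tiles were higher and 0 lower, and over 75%, 34 of 28353 were lower and 0 higher. A difference of 25 points in the opposite direction cannot occur in those classes. Between 25% and 50% the split was near even, with 25 higher and 29 lower of 3057 tiles. Between 50% and 75% lower tiles outnumbered higher ones, 57 to 16 of 4579. Chromosome 4 had the highest share of called tiles, 0.757% (26 tiles), followed by chromosomes 17 (0.605%, 13), 7 (0.601%, 19) and 14 (0.588%, 9). The X chromosome held 1 of 1587. Called tiles overlapped a protein-coding gene in 60.7% of cases, against 67.3% of all tested tiles. A gene end lay within 1 kb in 11.6%, against 19.5%, and outside any gene in 26.6%, against 24.2%. No test was made of these shares. The gene table used here gives spans, not exons, so "within" a gene below means between its ends.

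Strain by strain, C57BL/6J stood alone in a minority of its called tiles. With each strain placed above or below the point halfway between the C57BL/6J mean and the mean of the others, none of the 8 strains joined C57BL/6J in 20 of the 173 tiles. A single strain joined it in 43 tiles, 2 strains in 41, 3 in 25, 4 in 19, 5 in 23, 6 in 1 and 7 in 1. NZO/HlLtJ lay on the C57BL/6J side most often, in 34.7% of the tiles, and PWK/PhJ least often, in 26.0%. Paired contrasts with a single strain share the C57BL/6J samples and are given side by side. C57BL/6J was higher in 139 and lower in 166 tiles against 129S1/SvImJ (0.669% called), 95 and 377 against A/J (1.03%), 167 and 160 against DBA/2J (0.717%), 120 and 208 against NOD/ShiLtJ (0.719%), and 131 and 170 against NZO/HlLtJ (0.66%). Against the wild-derived strains it was higher in 334 and lower in 746 for CAST/EiJ (2.37%), 290 and 847 for PWK/PhJ (2.49%), and 199 and 229 for WSB/EiJ (0.939%).

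Several tiles set apart upward were nearly unmethylated in the other strains. The widest gap was beside Fsip1, which encodes a protein of the sperm tail sheath. This tile, chr2:118257001-118258000, lies 14 bp from the end of the gene and held 6 positions. The C57BL/6J samples had 50%, 56.1% and 40.4%, and the 24 others ran from 0.758% to 12.9% with a median of 3.47%. C57BL/6J exceeded the mean of the others by 44.6 points (log2 change 3.45, SE 0.24, limma adjusted p = 3.24e-09). Its difference sat in 4 of the 6 positions: 1 position at 72.0% against 2.24% and 3 at 73.7% against 6.98%, while the remaining 2 were at 0 in all 3 C57BL/6J samples.

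A tile of 6 positions at chr12:56524001-56525000 lies in the noncoding gene Sfta3-ps, 6935 bp from Nkx2-1, which encodes a transcription factor of lung and thyroid. The C57BL/6J samples had 55.2%, 64.0% and 75.2% there, against 9.96% to 28.6% with a median of 17.9% (difference 45.8 points, adjusted p = 1.26e-09). The groups did not overlap, and all 6 positions moved by 25 points or more. Within Zfp809, which encodes a zinc finger protein that silences endogenous retroviruses, chr9:22227001-22228000 was near 0 in the other strains. It lies 1289 bp from the gene's start. C57BL/6J samples had 32.2%, 28.9% and 33.8%, and the others 0.357% to 18.6% with a median of 5.05% (difference 26.1 points, adjusted p = 4.87e-06). In tiles of 2 kb the differences beside Fsip1 and in Zfp809 were 18.5 and 22.5 points and were no longer called. With the strands of a CpG averaged, Zfp809 was not called either (24.5 points).

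Klhl33 belongs to the kelch-like family, whose members bring proteins to ubiquitin ligases. Its tile, chr14:50897001-50898000, spans the gene's start. The C57BL/6J samples had 62.4%, 72.6% and 79.8%, against 2.17% to 52.8% with a median of 7.04% (difference 59.5 points, log2 change 3.94, SE 0.22, adjusted p = 9.71e-11). CAST/EiJ was intermediate at 49.2%, and the remaining 7 strains lay between 4.06% and 10.8%. The single position read inside the printed window had 60%, 76.5% and 92.9% in C57BL/6J and a mean of 13.1% elsewhere. Nearer the start, 7 positions averaged 86.6% against 16.2%, and 5 positions farther into the tile averaged 50.6% against 6.35%.

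Other tiles set apart upward lay in gene bodies or between genes. Samd4 encodes Smaug, an RNA-binding repressor of translation. In chr14:47016001-47017000, within the gene, the C57BL/6J samples had 88.1%, 81.5% and 89.2%, and the others 5.26% to 56.3% with a median of 23.4% (difference 59.6 points, adjusted p = 6.65e-09). All 13 positions there moved by at least 25 points. A tile between genes at chr3:62159001-62160000 lies 178777 bp from the nearest coding gene, Arhgef26. All 3 C57BL/6J samples were high, at 91.0%, 94.2% and 84.6% against 23.1% to 67.9% (difference 53.5 points, adjusted p = 4.4e-11). Its difference was uneven: 11 positions averaged 89.8% against 18.7%, and 6 positions 90.1% against 68.9%. Single positions near Arhgef26 could differ widely: at one the C57BL/6J samples had 100%, 70% and 62.5% and the others 1.37% to 24.2%. Depth is unknown there, so the precision of these values cannot be given, and whether reads from similar copies entered the tile was not tested.

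Within Sfi1, a centrin-binding protein of the centrosome, chr11:3193001-3194000 held 34 positions. In C57BL/6J the samples had 83.2%, 85.8% and 84.8%, while 6 strains lay at 62.2% to 65.8%, PWK/PhJ at 40.1% and DBA/2J at 13.1% (difference 29.5 points, adjusted p = 9.71e-11). This call was lost with the 24 other samples as 1 group (adjusted p = 0.171). Depth is unknown in this tile too, and whether reads from similar copies entered it was not tested. Near Bex6, at chr16:32200001-32201000, C57BL/6J had 63.1%, 73.0% and 73.5% against 4.91% to 54.9%, with 129S1/SvImJ next at 51.9%. Of the tiles described, the smallest gaps were in Platr25 (chr13:62715001-62716000, 91.6% ± 1.72 against 54.3%, gap 3.36 points), Gm21269 (chr7:73830001-73831000, 88.9% ± 2.13 against 55.2%, gap 0.444) and Disc1 (chr8:125091001-125092000, 85.4% ± 3.71 against 43.3%, gap 0.31; each ± is the SD over the 3 C57BL/6J samples). In these 3 the other strains were spread widely: at Disc1, CAST/EiJ was at 5.38% and 129S1/SvImJ at 75.9%. None of the 3 was called with the 24 other samples as 1 group (adjusted p = 0.102, 0.0613 and 0.205).

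**Figure D2:**
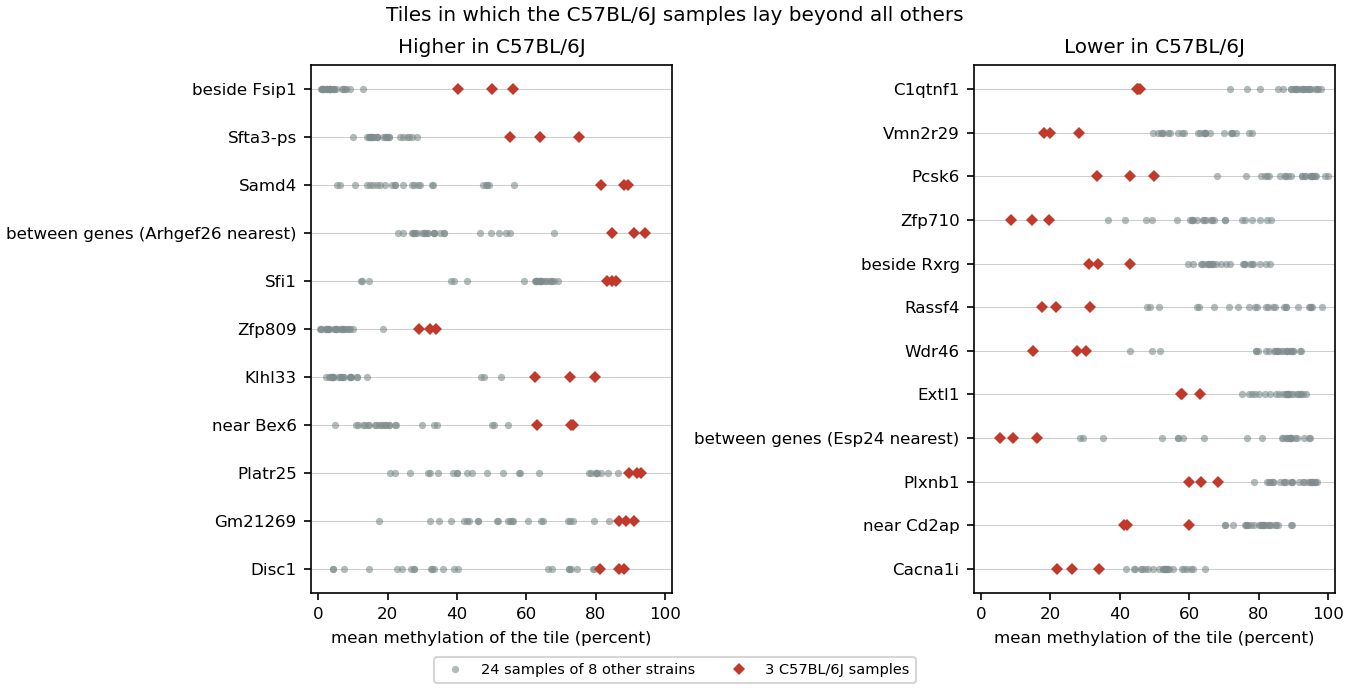
The plot of tiles set apart shows the mean methylation (horizontal axis, percent) of every sample in 11 higher and 12 lower tiles among those with a wide gap, ordered by gap. Red diamonds are the 3 C57BL/6J samples and grey points the 24 others; each tile's diamonds lie on 1 side of all grey points, from 27.6 points away beside Fsip1 to 0.31 points away at Disc1.

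Of all 44 tiles set apart, 56.8% overlapped a protein-coding gene, against 67.3% of all tested tiles. In the 12 tiles set apart downward by the widest gap, the mean of the other strains ran from 52.6% to 90.6%. C1qtnf1 encodes a secreted protein of the C1q and TNF related family. In chr11:118431001-118432000 the C57BL/6J samples had 45%, 45.8% and 45.3%, and the others 71.7% to 98.1% with a median of 92.1% (difference -45.2 points, log2 change -3.08, SE 0.26, adjusted p = 8.48e-08). All 6 positions moved, within a stretch of 36 bp. Rassf4 encodes a protein that binds Ras. Its tile, chr6:116647001-116648000, had 17.6%, 31.5% and 21.5% in C57BL/6J against 47.9% to 98.2% (difference -55.1 points, adjusted p = 1.13e-06). The change sat in 8 neighbouring positions, which averaged 6.66% in C57BL/6J and 78.0% elsewhere, whereas 3 positions in the same tile averaged 68.5% and 80.3%. Zfp710, a zinc finger gene, had 19.4%, 14.8% and 8.50% in chr7:80052001-80053000, against 36.7% to 83.7%. Pcsk6, a protease that activates secreted precursors, had 33.3%, 50% and 43.0% in chr7:65869001-65870000, against 67.9% to 100%.

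Differences in this group were smaller in Extl1, a glycosyltransferase of heparan sulfate synthesis (chr4:134362001-134363000, 59.5% ± 3.01 against 86.5%), and in Plxnb1, a semaphorin receptor (chr9:109103001-109104000, 63.9% ± 4.12 against 89.8%). The same held near Cd2ap, a scaffold protein of the actin cytoskeleton (chr17:42885001-42886000, 47.7% ± 10.6 against 80.3%), and in Cacna1i, a T-type calcium channel (chr15:80324001-80325000, 27.3% ± 6.12 against 52.6%). Cacna1i lay just past the minimum difference, at -25.3 points. Its call was lost in tiles of 2 kb (-19.7 points), without CAST/EiJ and PWK/PhJ (-24.6 points), without C57BL/6J replicate 1 (-22.5 points) or 4 (-24.7 points), and without any of 4 single samples of other strains (-24.8 to -24.9 points for CAST/EiJ replicate 5, NZO/HlLtJ replicate 2 and 129S1/SvImJ replicate 2, and -25.0 for A/J replicate 1, rounded). Plxnb1 lost its call without C57BL/6J replicate 1, at -24.0 points. In Extl1, 4 positions at one side of the tile averaged 44.0% against 87.5%, and 2 stretches with the other 5 differed by -13.9 and -13.6 points on average. Its call was lost with the median of the positions (-21.6 points) and with the strands of a CpG averaged (-23.9 points).

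The lowest C57BL/6J level among these 12 tiles was between genes on chromosome 17. In chr17:39011001-39012000, 24695 bp from Esp24, a gene of the exocrine gland secreted peptide family, the C57BL/6J samples had 5.45%, 9.29% and 16.2%. The others ran from 28.5% to 94.8% with a median of 87.5% (difference -64.6 points, adjusted p = 4.46e-10). All 14 positions, within 79 bp, were lower by 25 points or more. DBA/2J (36.7%) and A/J (49.5%) came nearest, PWK/PhJ was at 66.4%, and 129S1/SvImJ, CAST/EiJ, NOD/ShiLtJ, NZO/HlLtJ and WSB/EiJ lay between 85.6% and 94.2%. Beside Rxrg, the retinoid X receptor gamma gene, chr1:167640001-167641000 lies 378 bp from the gene and had 31.2%, 43.0% and 33.7% against 59.6% to 83.4%. There 2 of the 5 positions moved by 25 points or more, and with the median of the positions the difference was -23.0 points and not called. Those 2 positions are neighbours, taken as the 2 strands of 1 CpG, at 5.56% and 0% against 85.6% and 83.0%. The remaining positions were at 59.5%, 49.4% and 65.3% against 58.7%, 62.2% and 63.6%.

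Vmn2r29 encodes a vomeronasal pheromone receptor. Its tile, chr7:7278001-7279000, held 37 positions and spans the gene's start. The C57BL/6J samples had 28.1%, 18% and 19.7%, and the others 49.5% to 78.2% with a median of 63.6% (difference -40.7 points, log2 change -2.34, SE 0.16, adjusted p = 3.49e-09). The positions fell into 2 stretches separated by more than 100 bases. In the 19 positions at chr7:7278134-7278222, the C57BL/6J samples had 29.9%, 9.0% and 15.2% against 66.1% to 98.8%, a difference of -66.9 points, and all 19 positions moved by 25 points or more. In the 18 positions at chr7:7278380-7278491, inside the printed promoter window, they had 26.3%, 27.6% and 24.5% against 5.86% to 65.5%, and 1 position moved by 25 points. The 2 strands differed in that second stretch. Over its 7 CpGs read on both strands, C57BL/6J averaged 62.8% on one strand and 3.11% on the other, DBA/2J 69.3% and 8.32%, WSB/EiJ 75.5% and 4.98%, and CAST/EiJ 11.9% and 3.24%. In the other 5 strains the first strand averaged 64.5% to 84.9% and the second 23.0% to 45.6%. Over all 91575 CpGs with both strands read and a mean of 10% to 90%, the C57BL/6J means of the strands differed by 50 points or more in 0.507%, and those of the other strains in 0.236% to 0.357%. Over the 576 CpGs with both strands read in called tiles, whatever their mean, the shares were 1.56% in C57BL/6J and 0.174% to 1.39% in the others. In C57BL/6J these were 9 CpGs, of which 6 lay in the second stretch of Vmn2r29. That stretch held 0 to 6 in the other strains. Vomeronasal receptor and exocrine gland peptide genes form families of similar copies, among which reads can be misplaced, so the levels at Vmn2r29 and near Esp24 are uncertain. Misplaced reads were not tested in any tile, so the same doubt can apply to others, such as those between genes.

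**Figure D3:**
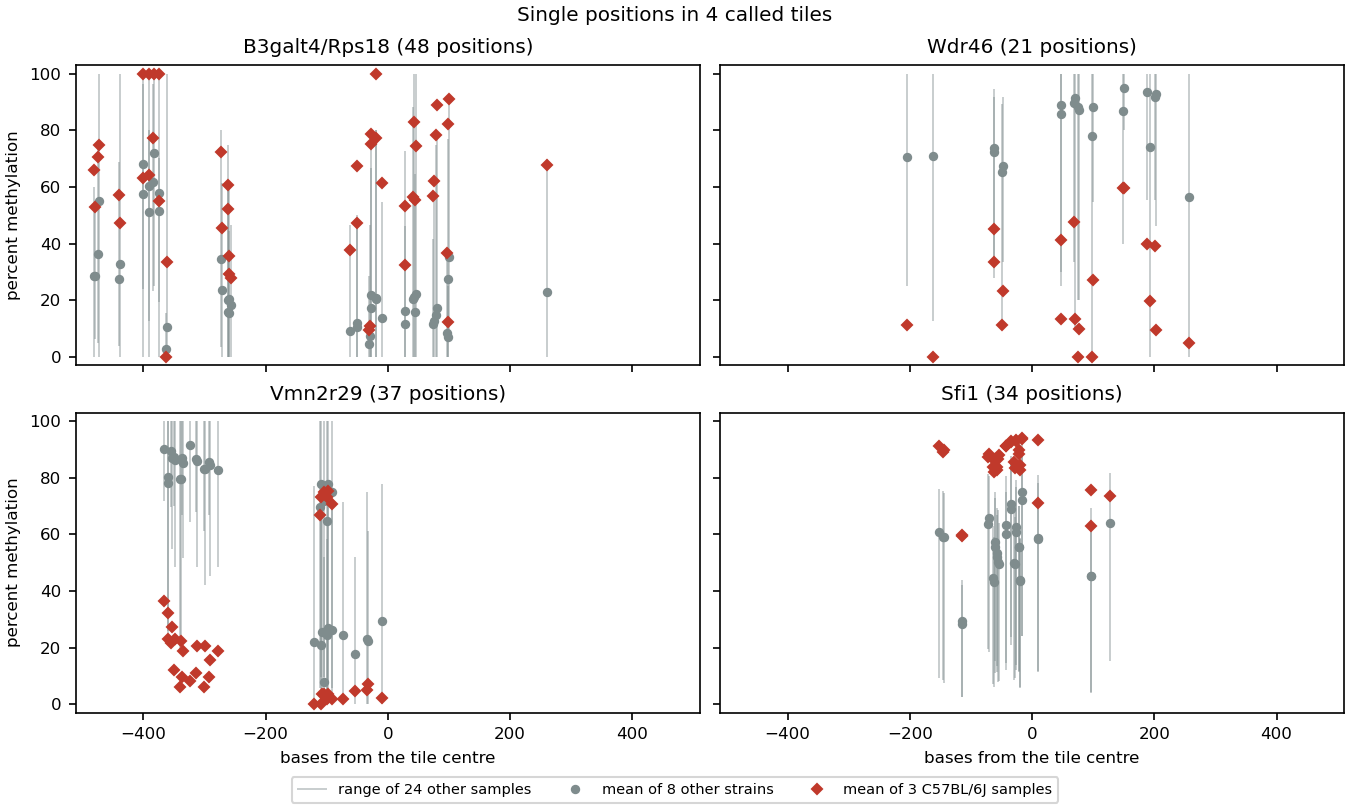
The plot of single positions shows percent methylation (vertical axis) against the distance in bases from the centre of the tile (horizontal axis) in 4 called tiles. Red diamonds are means of the 3 C57BL/6J samples, grey points means of the 8 other strain means, and grey lines the range of the 24 other samples. All 21 Wdr46 positions are lower in C57BL/6J by 25 points or more, the Vmn2r29 positions form 2 stretches of which the left one differs by -66.9 points on average, and 31 of 48 B3galt4 positions and 25 of 34 Sfi1 positions are higher by 25 points or more.

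Wdr46 and B3galt4 are neighbours on chromosome 17, and their tiles moved in opposite directions 2 kb apart. Wdr46 encodes a nucleolar protein. In chr17:33948001-33949000 the C57BL/6J samples had 27.6%, 30.3% and 14.9%, and the others 42.8% to 92.2% with a median of 85.5% (difference -57.1 points, log2 change -3.50, SE 0.16, adjusted p = 6.28e-12). All 21 positions moved. 129S1/SvImJ was intermediate at 47.9%, and the other 7 strains lay between 80.5% and 90.8%. In chr17:33951001-33952000, which holds the start of B3galt4 and part of Rps18, a gene of the small ribosomal subunit, the C57BL/6J samples had 55.6%, 60.1% and 64.5%. The others ran from 7.62% to 58.1% (difference 34.0 points, log2 change 2.00, SE 0.13, adjusted p = 8.63e-10). With the 24 other samples as 1 group this tile was not called (adjusted p = 0.0955), nor with strain means as units (0.905). A/J at 55.2% and 129S1/SvImJ at 41.4% came next, and WSB/EiJ was lowest at 8.57%. The 24 positions of the promoter stretch differed by 43.8 points on average, and the 23 positions at the other side of the tile by 23.2 points.

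At the ends of protein-coding genes, with 1 kb allowed to either side, 20 tiles were called, 7 higher and 13 lower. Of the 7 higher, Fsip1 and Klhl33 were set apart, and the other 5 were shared with at least 1 strain. Arl9, a small GTPase of the ADP-ribosylation factor family, had 77.8%, 87.3% and 80% in chr5:77002001-77003000, and A/J had 84.5%. The other 7 strains lay between 6.15% and 30.5% (difference 55.3 points, adjusted p = 1.04e-08, and 0.079 with the 24 other samples as 1 group). Pebp1, an inhibitor of Raf kinase, had 91.0%, 89.3% and 100% in chr5:117286001-117287000, with NOD/ShiLtJ at 94.4% and 129S1/SvImJ at 27.8%. In tiles of 2 kb this difference was 2.97 points. Beside Acpp, the prostatic acid phosphatase gene (chr9:104338001-104339000), C57BL/6J averaged 90.5% ± 3.53 and PWK/PhJ 91.3%, against 40.2% to 71.8% in the others. In the receptor tyrosine kinase gene Ltk (chr2:119760001-119761000) C57BL/6J averaged 60.2% ± 2.46 and PWK/PhJ 56.2%, against 24.1% to 39.0%. With the 24 other samples as 1 group, the calls of Pebp1 (adjusted p = 0.0732), Acpp (0.113) and Ltk (0.0797) were lost, and Ltk was also not called with the median of the positions (24.2 points).

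Of the 13 lower tiles at gene ends, the 8 with the widest difference included Wdr46, Vmn2r29 and Rxrg above. Ndufc2, a subunit of respiratory complex I, had the lowest level. In chr7:97400001-97401000, at the gene's start, the C57BL/6J samples had 0.513%, 1.85% and 2.67%, and CAST/EiJ averaged 2.16%. The other 7 strains lay between 34.0% and 47.9% (difference -35.5 points, log2 change -3.11, SE 0.19, adjusted p = 4.46e-10), and 13 of 15 positions moved. Sfn, the 14-3-3 sigma gene, had 12.0%, 17.5% and 27.7% in chr4:133601001-133602000, with NZO/HlLtJ next at 28.7% and the rest at 46.6% to 72.0%. In Gm34154, 531 bp from Gdf15, which encodes a stress-induced cytokine, chr8:70633001-70634000 averaged 31.6% ± 11.8 in C57BL/6J and 37.3% in NOD/ShiLtJ, against 52.4% to 81.4%. The gene 2300002M23Rik (chr17:35568001-35569000) averaged 26.2% ± 8.23, with WSB/EiJ next at 31.6%. In chr7:98145001-98146000, where the calpain gene Capn5 and the olfactory marker gene Omp overlap, the C57BL/6J samples had 0%, 30.2% and 27.3%. NOD/ShiLtJ (30.5%) and A/J (34.7%) were next, and the C57BL/6J range of 30.2 points was wide. The tiles at Gm34154 (adjusted p = 0.0797) and at Capn5 and Omp (0.122) were not called with the 24 other samples as 1 group.

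Neighbouring called tiles of the same direction formed 5 runs: 1 run of 3 tiles and 4 of 2. The longest was in Wnt5a, which encodes a secreted Wnt ligand that acts mostly outside the beta-catenin pathway. Over chr14:28509001-28512000, with 65 positions, the C57BL/6J samples had 19%, 21.4% and 17.5%, and the mean of the other strains was 53.5%. WSB/EiJ was lower still at 9.32%, and the remaining 7 lay between 46.4% and 73.7%. The largest adjusted p among its 3 tiles was 3.54e-06. With the 24 other samples as 1 group none of the 3 was called (adjusted p = 0.2, 0.349 and 0.204). In Unkl, a zinc finger gene (chr17:25222001-25224000, 29 positions), the C57BL/6J samples had 5.37%, 8.03% and 9.36%, PWK/PhJ 15.8% and the others 27.6% to 53.0%. Its first tile was set apart with a gap of 5.65 points. There 7 positions averaged 12.4% against 68.7%, and 14 others 1.84% against 20.5%. In the tile of 500 bases that holds more of its positions, the difference was -18.7 points and was not called.

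Of the other runs, Hspg2 was shared with 3 strains and the other two with 1 strain each. In Hspg2, the basement membrane proteoglycan perlecan (chr4:137558001-137560000), the C57BL/6J samples had 31.3%, 32.3% and 34.8%. 129S1/SvImJ (35.0%), NOD/ShiLtJ (30.7%) and NZO/HlLtJ (35.6%) lay beside them, and A/J, CAST/EiJ, DBA/2J, PWK/PhJ and WSB/EiJ lay between 86.5% and 92.5%. With the 24 other samples as 1 group, neither tile was called (adjusted p = 0.36 and 0.355). Without CAST/EiJ and PWK/PhJ the first of its tiles was no longer called (-23.3 points). In Kank4, a regulator of the cytoskeleton (chr4:98778001-98780000), C57BL/6J averaged 31.4%, NZO/HlLtJ 37.8% and the others 54.1% to 68.3%. Between genes at chr7:63802001-63804000, 35769 bp from the deubiquitinase gene Otud7a, the C57BL/6J samples had 95.0%, 94.2% and 92.1%, A/J 90% and the other 7 strains 15.7% to 29.2%. Its first tile had the widest difference of all called tiles, 80.3 points (log2 change 6.25, SE 0.24, adjusted p = 3.97e-13), with 93.6% in C57BL/6J, 88.1% in A/J and 0.889% to 5.04% elsewhere.

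**Figure D4:**
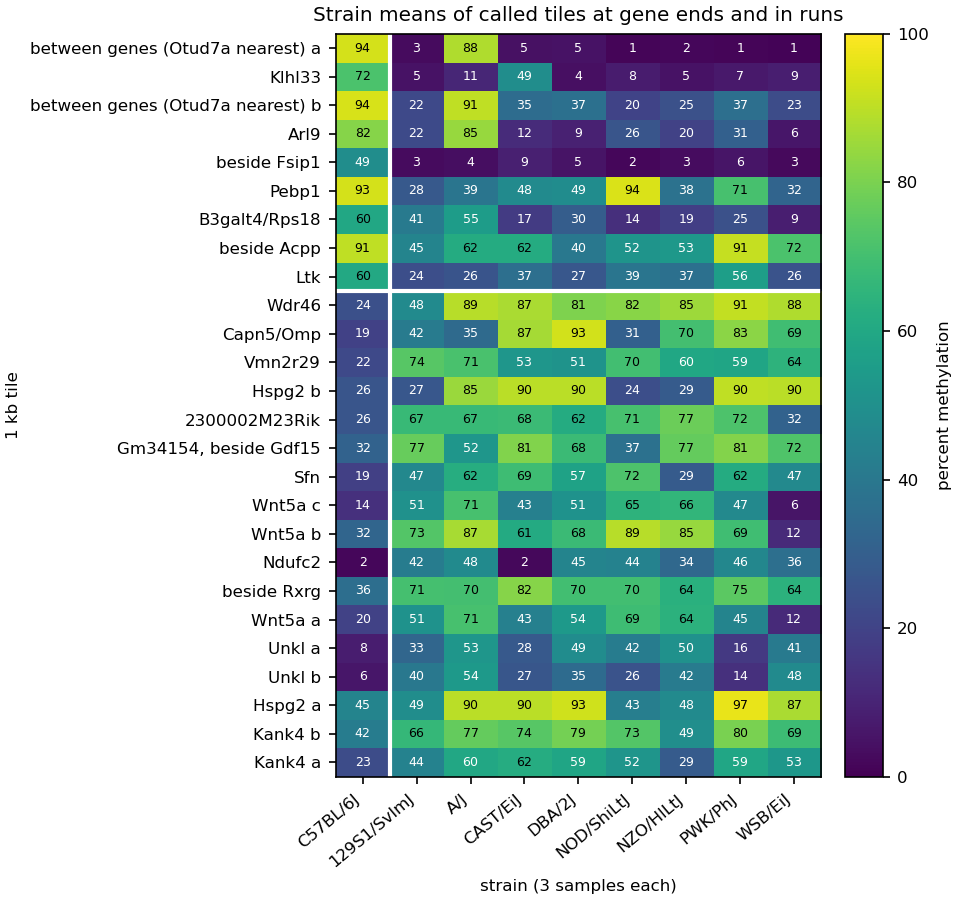
The heat map gives the mean methylation of each strain (columns, 3 samples each, colour and printed value in percent) in called tiles at gene ends and in runs (rows). C57BL/6J is the first column; the 9 tiles above the white line are higher and those below it lower in C57BL/6J. Arl9 and the tiles nearest Otud7a are also high in A/J, Ndufc2 is also low in CAST/EiJ, and the Wnt5a tiles are also low in WSB/EiJ.

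None of the lists of liver and methylation genes held a tile called at 25 points in limma, and over all tested tiles 0.379% were called, so that few calls could fall in lists of this size. At an unadjusted p under 0.05 there were 8991 tiles, 19.7% of all tested. The lists covered 38 imprinted genes (133 tested tiles, 24 of them at an unadjusted p under 0.05), 16 writers and erasers of DNA methylation (43 tiles at 11 genes, 6), 33 genes of lipid and cholesterol metabolism (72 tiles at 22, 22) and 18 of glucose and insulin (34 tiles at 14, 3). Xenobiotic metabolism (28 genes, 27 tiles at 12, 3), acute phase and complement (18 genes, 16 tiles at 7, 4) and genes with known variants in C57BL/6J (7 genes, 38 tiles at 4, 9) completed them. The median differences of their tiles ran from -1.51 points for lipid and cholesterol metabolism to -0.10 for writers and erasers, with -0.25 for imprinted genes, beside -0.57 over all tested tiles.

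At a minimum difference of 10 points, which calls 1535 tiles (3.37% of those tested; 0.868% higher and 2.5% lower), genes of bile acid and fatty acid metabolism were among those with a lower tile. The genes given at this minimum were chosen after their values were seen. Of the 22 lipid and cholesterol genes with a tested tile, 5 had a lower tile and 0 a higher one, and 6 of their 72 tiles were called (8.33%). In Cyp7a1, the rate-limiting enzyme of bile acid synthesis from cholesterol, chr4:6272001-6273000 had 41.6%, 48.6% and 43.1% in C57BL/6J and 48.3% to 87.9% in the others (difference -23.7 points, adjusted p = 0.000869). Replicate 2 overlapped the lowest of the other samples there, and 129S1/SvImJ, at 54.4%, was the next strain. In Nr1h4, the bile acid receptor FXR, chr10:89482001-89483000 had 45.3%, 53.5% and 59.7% against 55.2% to 88.7% (difference -19.2 points, adjusted p = 0.00246). Acacb, an acetyl-CoA carboxylase that controls fatty acid oxidation, had 2 lower tiles. The one at chr5:114226001-114227000 had 79.2%, 78.4% and 74.0%, below all other samples (84.5% to 96.6%, difference -14.7 points, adjusted p = 8.14e-06). The Acacb tile at chr5:114207001-114208000 had 69.0%, 60.7% and 76.6% and overlapped the others (69.2% to 96.2%, difference -17.5 points, limma adjusted p = 0.0204). NZO/HlLtJ was the next strain there, at 76.4%.

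Of the tiles in other lists, 7.41% were called at 10 points for xenobiotic metabolism, 2.94% for glucose and insulin, 2.63% for genes with known variants, 2.33% for writers and erasers and 2.26% for imprinted genes, beside 3.37% over all. Tet3, a dioxygenase that oxidises methylcytosine, had 52.9%, 54.5% and 52.2% over the 24 positions of chr6:83368001-83369000, below all other samples (58.8% to 83.1%, difference -21.0 points, adjusted p = 1.31e-05). Among xenobiotic genes, Nr1i3, the nuclear receptor CAR, averaged 37.3% ± 5.39 in chr1:171216001-171217000 against 53.4% (adjusted p = 0.003), and the exporter gene Abcc3 44.8% ± 5.81 in chr11:94343001-94344000 against 66.0% (adjusted p = 0.00615). Pklr, the pyruvate kinase gene of liver, differed by -10.2 points (adjusted p = 0.00172) and Cdh23, a cadherin gene of hearing, by -11.0 points (adjusted p = 0.0249). Of the imprinted genes, Mest averaged 30.9% ± 10.1 in chr6:30732001-30733000 against 50.8% (adjusted p = 0.00486), with NZO/HlLtJ lower at 26.7% and CAST/EiJ highest at 85.2%. A tile shared by Mcts2 and H13 (chr2:152687001-152688000) averaged 40.2% ± 8.51 against 61.9%, with NOD/ShiLtJ lower at 35.0%. A tile at Dlk1 averaged 59.7% ± 7.50 against 73.9% (limma adjusted p = 0.028), with 129S1/SvImJ at 60.4% and WSB/EiJ at 64.4%. Acute phase and complement genes had 0 such tiles, with 4 of 16 at an unadjusted p under 0.05. Of the cell type markers, 1 of 9 hepatocyte genes with a tested tile (5.56% of tiles), 1 of 10 immune (5.88%), 2 of 7 endothelial (11.8%), 1 of 6 stellate (5.26%) and 1 of 4 cholangiocyte genes (8.33%) had a tile called at 10 points. Hnf4a, a transcription factor of hepatocyte identity, averaged 13.4% ± 6.56 in chr2:163551001-163552000 against 32.8% (adjusted p = 0.00529). The immune gene Tyrobp (-13.3 points) and the endothelial gene Egfl7 (-13.2) were also lower, and the endothelial gene Kdr (14.6), the stellate gene Pdgfrb (23.9) and the cholangiocyte gene Sox9 (11.7) were higher. The part of other cell types in these values was not tested. Tiles lower in C57BL/6J made up most calls at this minimum over the whole genome too, 1139 of 1535.

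Single positions gave the same direction as the tiles. Of 704337 positions tested, 3900 were called (0.554%), 1296 of them higher (0.184%) and 2604 lower (0.37%). This fit takes 1 spread for all strains. With weights per strain, 1761 positions were called, 666 higher and 1095 lower, and 167 tiles. In the weighted tile fit C57BL/6J had a weight of 0.698 and the other strains 0.970 to 1.17. The 667 set apart (0.0947%) comprised 221 higher and 446 lower. With the median of each sample subtracted before the test, 1546 of the positions called were higher and 1926 lower. Only the p-value was adjusted in this way, and direction and the 25-point minimum still came from unadjusted percent. Of the called positions, 806 lay in called tiles, 2000 in tested tiles that were not called and 1094 outside tested tiles. Where a position was called and its neighbour on the opposite strand was tested, the neighbour was called the same way in 419 of 1219 cases (34.4%) and the opposite way in 0. Where the first was not called, 0.402% of neighbours were. Inside the 173 called tiles, 1159 of 1605 positions (72.2%) moved by 25 points or more in the direction of the tile. In 28 tiles every position did so, and in 16 tiles most did not. Most called tiles, 127, held fewer than 10 positions. Tiles of 4 positions, just outside the minimum, differed by 25 points or more in 0.492% of 18918 cases, and tiles of 5 in 0.496% of 6452.

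Mean methylation over the positions listed in all samples was low in C57BL/6J. The samples had 27.3%, 27.5% and 27.4%, a mean of 27.4% ± 0.112 (SD, n = 3). The 24 other samples averaged 27.9% ± 0.404 and ran from 27.2% to 28.6%. The difference of -0.502 points had p = 0.0150 in a two-sided exact permutation test over 2925 regroupings of the samples, whose smallest possible p is 0.000684. The 24 others are not independent draws, since samples of a strain lay close together, and WSB/EiJ had the same mean to 3 digits (27.4%). The test did not pass 0.05 without C57BL/6J replicate 1 (-0.452 points, p = 0.0923) or replicate 4 (-0.494 points, p = 0.0738, both by exact permutation).

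The 3 C57BL/6J samples correlated less with each other than the samples of any other strain did. Over 1692477 positions the correlation between C57BL/6J samples was 0.949 to 0.958, and within the other strains 0.963 to 0.973. Over tested tiles it was 0.976 to 0.980 against 0.983 to 0.988. With the 24 samples of other strains, C57BL/6J replicates 1, 2 and 4 correlated at 0.951, 0.961 and 0.953 on average over positions. That was about as high as among themselves, whereas over tiles these means were lower, at 0.966, 0.972 and 0.968. These correlations are descriptions over positions of the same libraries. The range among the 3 samples of a strain had a median of 5.65 points over tiles in C57BL/6J and 4.46 to 4.84 in the others. It reached 25 points in 1038 tiles of C57BL/6J (2.28% of tested) and in 315 to 568 of the others, and 50 points in 43 against 6 to 22. Among the 17682 tiles with 10 or more positions, 99 in C57BL/6J and 22 to 61 in the others reached 25 points. C57BL/6J replicate 1 was the sample apart from the other 2 in 407 of the 1038 tiles, replicate 4 in 376 and replicate 2 in 255, so no single mouse accounted for them. Replicates 1 and 4 were more often below than above the other 2, in 272 and 238 tiles. The share of values at exactly 0 or 100 was 75.5%, 69.0% and 74.4% in C57BL/6J, with a mean of 73.0% against 66.7% in the others, which ran from 62.0% to 72.5% (two-sided exact permutation p = 0.00410). Depth is unknown, and the part of these values in the spread was not tested.

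**Figure D5:**
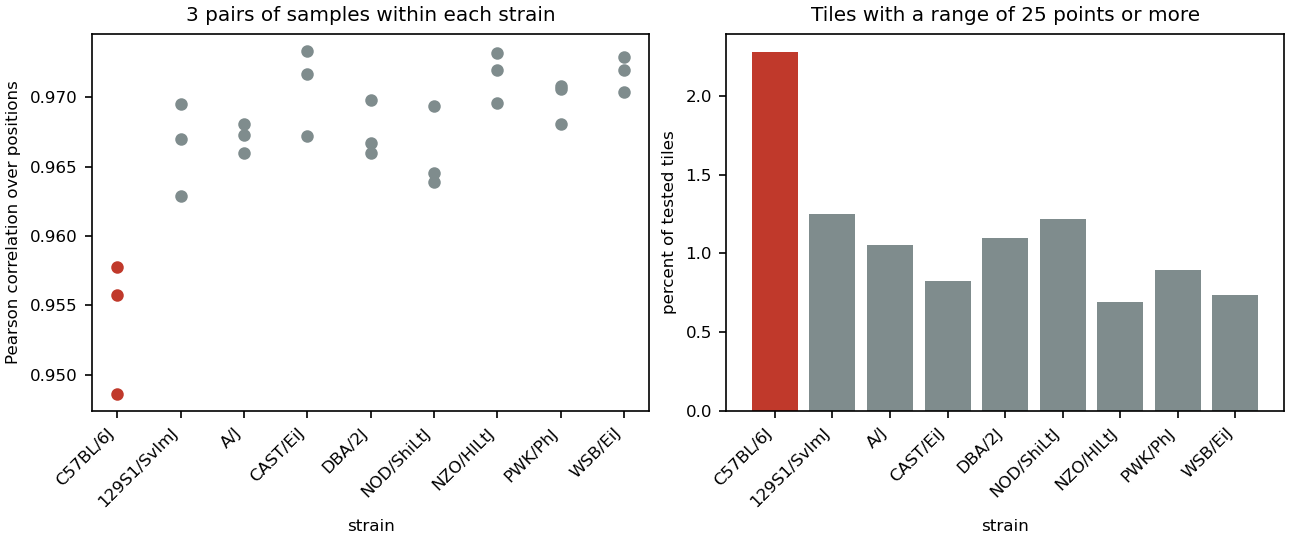
The left panel plots the Pearson correlation over positions for the 3 pairs of samples within each strain, on an axis that does not start at 0. The right panel gives the percent of tested tiles in which the 3 samples of a strain spanned 25 points or more; C57BL/6J, in red, has correlations of 0.949 to 0.958, below all other pairs, and 2.28% of tiles.

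Variable tiles were most frequent at intermediate levels. Where the other strains averaged 25% to 75%, 7.27% of tiles spanned 25 points or more in C57BL/6J, against 0.234% under 10%, 1.88% at 10% to 25%, 3.2% at 75% to 90% and 0.408% over 90%. The middle class held 555 of the 1038 such tiles and the class of 75% to 90% another 335, and levels near 0 or 100% leave less room for a range. Of X-linked tiles 3.28% did so, and of tiles on single autosomes 1.51% to 3.06%. The widest range, 75 points, was in Samd4 at chr14:47065001-47066000, with 25%, 100% and 93.3% in C57BL/6J over 5 positions within 19 bp. This is another tile than the one set apart above. Near Onecut1, which encodes the liver transcription factor HNF6, chr9:74857001-74858000 had 60.8%, 76.2% and 2.08%. In Gnas, the imprinted gene of the stimulatory G protein alpha subunit, chr2:174296001-174297000 had 88.4%, 15.9% and 15.3%, and the other samples ran from 10.1% to 88.1%. Cadm4, a cell adhesion gene, had 100%, 73.3% and 26.7% in chr7:24499001-24500000. Carns1, the carnosine synthase gene, had 33.3%, 93.3% and 96.7% in chr19:4173001-4174000. At Lrba and Mab21l2 (chr3:86548001-86549000) the values were 0%, 60% and 33.3%, and in Gm39496 on the X chromosome (chrX:11491001-11492000) 51.7%, 21.1% and 86.7%. The other samples were also wide in several of these tiles. They ran from 0% to 100% over 6 positions near Onecut1, and from 33.3% to 91.7% over 4 positions in Cadm4. Over 4 positions at Lrba they ran from 0% to 84.4%, and in Gm39496 from 18.9% to 74.9%. Their ranges were narrower in Samd4 (58% to 100%) and in the 2 stretches of Carns1 (77.8% to 100% and 73.3% to 100%). These 7 tiles were not called between strains, with adjusted p from 0.293 to 0.994.

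The eighth of these tiles was called. Near Inpp5a, an inositol polyphosphate phosphatase gene, chr7:139369001-139370000 had 50%, 78.1% and 6.06% in C57BL/6J and 67.6% to 97.6% in the others. The difference of -41.4 points had an adjusted p of 0.00334 (SE 0.59 around a log2 change of -2.90). Without replicate 4, the sample at 6.06%, the difference was -22.1 points and the adjusted p 0.0867, so this call rested on 1 mouse. Each of these 8 tiles held 5 to 8 positions.

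C57BL/6J also differed in which positions were listed. All 3 C57BL/6J samples had a value at 2575484 positions, of which 7554 had none in any sample of another strain, and 4058 positions listed in all 24 others were listed in no C57BL/6J sample. Among laboratory strains the first number was 3204 to 5112 and the second 2523 to 3221. For WSB/EiJ they were 17413 and 12370, for CAST/EiJ 103624 and 72191, and for PWK/PhJ 90699 and 70712. Within promoter windows, 282 of 283 positions listed in C57BL/6J alone fell on a reference CpG, against 64 of 101 for 129S1/SvImJ and 1306 of 2709 for CAST/EiJ. Of the 365 positions there that only C57BL/6J lacked, 224 fell on a reference CpG, against 179 of 180 for 129S1/SvImJ and 3795 of 3810 for CAST/EiJ. Overall 99.6% of listed positions in promoter windows were at a reference CpG in C57BL/6J and 98.2% to 99.2% in the others. The submitters' processing notes name GRCm38/mm10, but whether the reads of every strain were aligned to it is not given in the sources used here. Tiles were built from positions listed in all samples, so CpGs that differ between strains in sequence enter the tile means only where every sample listed them.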

How the data were processed

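The deposited files give, per the labels, reduced representation bisulfite sequencing of hepatocytes from 27 mice. Per the submitters' processing notes, the authors used Trim Galore 0.6.3, Bowtie2 and Bismark 0.22 with GRCm38/mm10. The deposited values are the percent of methylated reads per position. Read coverage is not in the values used here, so depth is unknown, and positions could not be filtered or weighted by it; coverage filters are not given in the sources used here.

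Groups are the strains that the labels give. Positions listed in all 27 samples were averaged over 1 kb tiles of at least 5 positions. Tiles and positions with a mean of 2.5% to 97.5% were tested with limma 3.58.1 in R 4.3.3 on log2((percent + 5)/(100 - percent + 5)), with strain as a factor. C57BL/6J was contrasted with the equally weighted mean of 8 strain means. Calls needed a Benjamini-Hochberg adjusted p under 0.05 and a difference of 25 points. Single values per sample were compared by exact permutation tests (scipy 1.17.1, Python 3.11.15, numpy 2.4.6, pandas 2.3.3), and figures were drawn with matplotlib 3.10.9. The fitting script was tested on simulated data.

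Named tiles were the 12 higher and 12 lower set apart by the widest gap, up to 8 higher and 8 lower with the largest difference at ends of protein-coding genes, list members with called tiles, the 8 widest ranges among the C57BL/6J samples, and the longest runs of called neighbours, all 5 of which are given. The named tile of 1 gene and the tiles of 2 list genes are not reported here. Gene spans were extended by 1 kb for the lists. Stretches within tiles were split at gaps over 100 bases after the values were seen. The members and lists were chosen with earlier results of these data known. Alternatives covered the offset, scale, filters, tile size and value, strands, minimum difference, sample level, variance model, error unit, reference strains, replicate block and single samples left out.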

Additional observations from a re-analysis of the deposited data

How the results depend on the processing

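Of 2701 alternative values, 2542 kept their call or stayed close to the reported value, and 0 called values changed direction. Close was taken broadly: 5322 and 5614 called positions counted as close to 3900. Some outcomes were fixed beforehand, since a tile called at 25 points stays called at 10, and subtracting sample medians left the differences as they were. Each of the 7 named tiles that were not called changed sign under at least 1 alternative. In the paired contrasts at 10 points, the higher and lower tiles were 544 and 567 for DBA/2J (167 and 160 as reported) and 754 and 752 for WSB/EiJ (199 and 229), so that balance turned. The 173 called tiles became 1535 at a minimum difference of 10 points and 14 at 50, 339 with 3 and 46 with 10 positions per tile, 87 with the strands of a CpG averaged, 315 with tile medians, 2 with strain means as units and 56 with the 24 other samples as 1 group. The 44 tiles set apart became 165, 8, 83, 16, 25, 59, 2 and 34 in the same order, and 73 without CAST/EiJ and PWK/PhJ. With single samples left out, tiles called ranged from 170 to 222 and tiles set apart from 44 to 93; with single C57BL/6J samples left out, positions called ranged from 2832 to 5614. The 3900 called positions became 2306 with an offset of 1 and 1761 with weights per strain.

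At 10 points the paired contrasts called 4286 tiles (PWK/PhJ), 3892 (CAST/EiJ), 2134 (A/J), 1506 (WSB/EiJ), 1384 (NOD/ShiLtJ), 1111 (DBA/2J), 1102 (NZO/HlLtJ) and 990 (129S1/SvImJ), and genes with a called tile numbered 4 (imprinted), 1 (writers and erasers), 5 (lipid), 1 (glucose), 2 (xenobiotic), 1 (known variants), 1 (hepatocyte), 1 (immune), 2 (endothelial), 1 (stellate) and 1 (cholangiocyte). The difference in mean methylation ranged from -0.562 to -0.452 points with single samples left out (exact permutation p from 0.00385 to 0.0923). The mean correlation within C57BL/6J minus that within the other strains was -0.0148 over positions, -0.00704 over tiles and -0.0715 over positions with a mean of 10% to 90%, lowest of 9 strains in each. The replicate block called 170 tiles, 44 set apart, and 2854 positions. On the log2 scale, deviations from strain means were correlated between C57BL/6J samples and samples of other strains. Over 16 pairs with the same replicate number the correlations were -0.0067 to 0.0201 (mean 0.00896). Over 56 pairs with different numbers they were -0.0192 to 0.0130 (mean -0.00255). Whether a number marks a shared batch was not tested. Of the 46 named tiles that were called, 116 of 2166 alternative values lost the call, 44 of them with strain means as units, 36 at 50 points, 16 with the 24 other samples as 1 group (among them B3galt4, Sfi1, Disc1, Hspg2, Wnt5a, Arl9, Pebp1, Acpp, Ltk, Capn5 and Gm34154) and 8 with a single sample left out; the cause was not tested.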
